A study of Mus musculus with 16 samples.

Results

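The comparison described here is that of untreated Irf1-/- with untreated wild-type bone marrow-derived dendritic cells (BMDCs), at the level of single genes. It rests on 4 of the 16 samples of the series, which were chosen by genotype and treatment alone, and not by any measured value. The table deposited by the authors lists 23356 genes, and 11017 of them entered the comparison, because their level was 1 FPKM or more in wild-type or in Irf1-/- BMDCs and their status was OK in both. FPKM counts the fragments of a gene relative to transcript length and to all mapped fragments, so that levels can be set side by side between genes.

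The series profiled BMDCs of 4 genotypes by RNA-seq, each untreated or treated with c-di-GMP, a bacterial cyclic dinucleotide that activates the sensor STING, for 18 h. All mice were of the C57BL/6 strain background. Bone marrow was cultured for 6 days with GM-CSF and IL-4, each at 10 ng/ml and the loose cells of the dish were taken. The labels list 2 replicates of untreated Wild-Type and 2 of untreated Irf1-KO (BMDCs of mice with both Irf1 alleles disrupted in every cell), neither of which received c-di-GMP, and nothing says whether the replicates came from separate mice or cultures. The authors combined the replicates of each condition into a single FPKM with an interval, so the comparison has no spread between replicates and no test, and the depth of the samples is unknown. A gene is called lower or higher here when it differed by more than 2-fold on the log2(FPKM + 0.1) scale and the authors' intervals of both conditions did not overlap. Where both conditions reached 10 FPKM (5731 genes), the median half-width of the interval was 25.4% of the FPKM in wild-type and 25.6% in Irf1-/- BMDCs. The intervals are not always centred on the FPKM, and some FPKM lie outside their own interval. An example is Uqcrq in untreated wild-type BMDCs, at 285 FPKM with an interval of 144 to 257.

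IRF1 is a transcription factor of the interferon regulatory factor family. It is induced by IFN-γ and other signals, binds to interferon response elements in promoters, and is known for the control of interferon-induced GTPases, antigen presentation on MHC class I and the response to IL-12. Dendritic cells display antigen to T cells and release cytokines that steer them. Mice without Irf1 are known to have few NK cells and few CD8+ T cells.

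The targeted gene was read first. Irf1 (chromosome 11, 53770014 to 53778374) stood at 149 FPKM in untreated wild-type BMDCs, with an interval of 113 to 185, and at 25.9 FPKM in untreated Irf1-/- BMDCs, with an interval of 19.0 to 33.3. The log2 difference was -2.52. Its level was reduced but not at 0, and a value for the whole gene does not show which part of the transcript the remaining reads cover. In the other untreated conditions Irf1 was at 24.1 FPKM in Tmem173-/- BMDCs, which lack STING, and at 164 FPKM in BMDCs labelled Irf3/7-/-. Untreated Irf1-/- and Tmem173-/- BMDCs therefore had like levels of Irf1, and Irf1 alone does not tell those conditions apart. Tmem173, the gene of STING, does so, with 77.0 FPKM in untreated Irf1-/- against 8.97 FPKM in untreated Tmem173-/- and 103 FPKM in wild-type cells.

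The genes targeted in the samples labelled Irf3/7-/- were read too. Without c-di-GMP, Irf3 was at 19.9 FPKM in wild-type, at 20.2 in Irf1-/- and at 7.74 in Irf3/7-/- BMDCs, and Irf7 at 15.2, 6.22 and 1.07 FPKM in the same order. With c-di-GMP, Irf7 was at 4.97 FPKM in the samples labelled Irf3/7-/- against 687 FPKM in wild-type. Irf3 was at 20.2 FPKM there against 15.8 FPKM in wild-type, so it was not lower despite the label. As for Irf1, a value for the whole gene does not show which part of the transcript the reads cover. The level of Irf3 therefore does not settle the label.

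With c-di-GMP, Irf1 was at 245 FPKM in wild-type, 116 FPKM in Irf1-/-, 23.3 FPKM in Tmem173-/- and 262 FPKM in the samples labelled Irf3/7-/-. Irf3 was not called between untreated Irf1-/- and wild-type BMDCs, with a log2 difference of 0.02. Irf7, a further interferon regulatory factor that interferons induce, was lower, with 15.2 FPKM in wild-type against 6.22 FPKM in Irf1-/- BMDCs, a log2 difference of -1.28.

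The labelled cell type was checked against its markers. Of 21 dendritic cell markers tested, 5 were lower and 1 was higher in Irf1-/- BMDCs. Itgax, the gene of CD11c, was at 210.0 FPKM in wild-type against 369 FPKM in Irf1-/- BMDCs, and Cd74, the invariant chain of MHC class II, at 4278 and 3565 FPKM, neither of them called. Flt3, Zbtb46, Ccr7 and Fscn1 were also within 2-fold of wild type. The markers called lower were those of MHC class II (Ciita, H2-Eb1, H2-Aa and H2-Ab1) together with Irf8, and the one called higher was Cd209a, a lectin, with 0.182 and 1.30 FPKM.

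Across all genes the difference was mostly one of losses. Of 11017 genes tested, 527 were called (4.78%), with 388 lower (3.52%) and 139 higher (1.26%) in untreated Irf1-/- BMDCs. The median log2 difference over all genes tested was 0.00 to 2 decimals. A gene at under 1 FPKM in one condition passed the filter only through the other, so counts and medians over a list describe the members that passed and are not a test. Counts in the lists that follow are to be read beside these shares, 3.52% lower and 1.26% higher over all genes tested. The falls were also the larger changes, with 153 genes lower by more than 4-fold against 23 higher, and 26 lower by more than 16-fold against 0 higher. Among the lower genes, 183 had at least 10 FPKM in wild-type BMDCs, and 11 went from at least 10 FPKM to under 1 FPKM. Another 98 genes were more than 2-fold apart with intervals that overlapped and were not called. They include 28 genes of microRNAs and small nucleolar RNAs, listed at 0 in one condition and at 10 FPKM or more in the other.

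**Figure D1:**
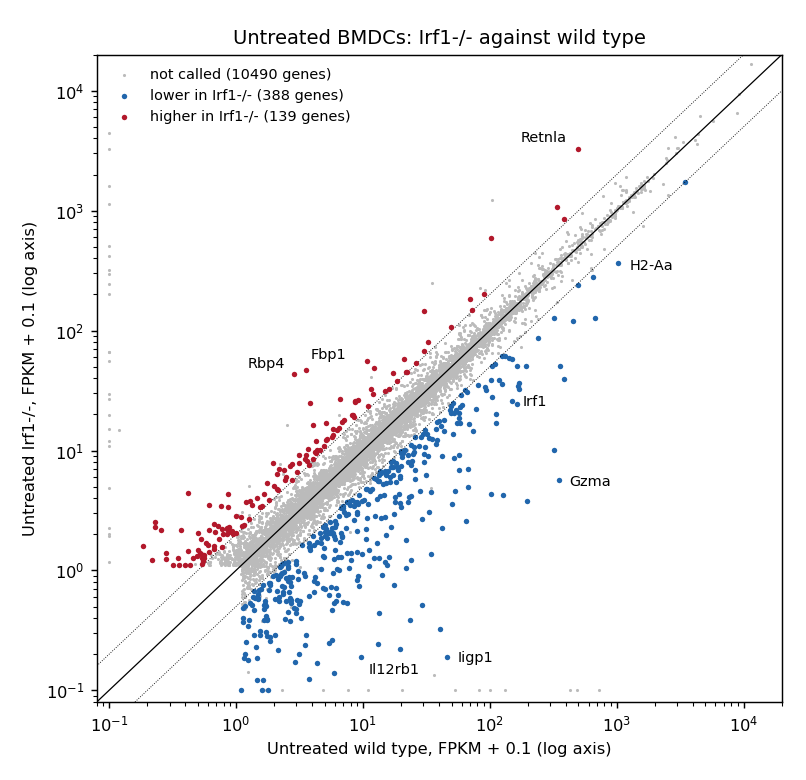
FPKM + 0.1 of each of the 11017 genes tested in untreated wild-type (x axis) and untreated Irf1-/- BMDCs (y axis), both on log axes, with dotted lines at 2-fold. The 388 lower genes (blue) reach farther from the solid line of equal level than the 139 higher ones (red), and most genes lie along that line, while points on the left and lower edges are genes listed at 0 in one condition.

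Among the 43 gene lists, the lowest median was that of the interferon-induced GTPases, proteins that assemble on the vacuoles of intracellular bacteria and parasites. Of 21 members in the table, 19 were tested and 19 of these were lower, with a median log2 difference of -3.58 and a range from -7.92 to -1.14. The summed level of the list was 1009.6 FPKM in wild-type against 95.9 FPKM in Irf1-/- BMDCs.

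Iigp1, an immunity-related GTPase, was at 45.9 FPKM (interval 34.7 to 57.2) in wild-type and 0.0896 FPKM (interval 0.0134 to 0.171) in Irf1-/- BMDCs, the largest fall of the comparison among genes with at least 10 FPKM. Gm12250, of the same family, went from 40.6 to 0.223 FPKM, and Gm4951 from 19.4 to 0.123 FPKM. The 3 genes were thus easily detected in wild-type and close to 0 in Irf1-/- BMDCs, and their log2 differences were -7.92, -6.98 and -6.45. Tgtp1 and Tgtp2, T cell-specific GTPases by name, fell from 23.4 to 0.288 FPKM and from 13.3 to 0.343 FPKM. Ifi47 kept more of its level, with 102 FPKM in wild-type against 4.21 FPKM in Irf1-/- BMDCs.

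The guanylate-binding proteins went the same way. Gbp4 was at 29.2 and 0.414 FPKM and Gbp6 at 13.1 and 0.145 FPKM, with log2 differences of -5.83 and -5.75. Gbp2, on chromosome 3, was more abundant, with 382 FPKM in wild-type against 39.7 FPKM in Irf1-/- BMDCs, and Igtp, an immunity-related GTPase, was at 57.3 and 6.84 FPKM. The smallest fall of the list was that of Gbp1, with a log2 difference of -1.14. Several of these genes are near copies of each other (Tgtp1 and Tgtp2, Iigp1 and Gm4951, the Gbp genes of chromosome 5), and Tgtp2 and Ifi47 share a locus in the table, so how reads were divided between copies is uncertain for the single gene.

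Of the 15 genes with the largest falls, 9 had a promoter window (250 bases before to 50 after the start) in the RefSeq table of GRCm38.p6. The windows of 5 genes are printed with the letters GAAANNGAAA in capitals, which describe an interferon response element, on either strand, so that they may appear here as their reverse complement. They are shown because they hold these letters, and the genes were picked as the largest falls. The letters are in the windows of 3.99% of the 27025 genes that have one. Windows were matched for 60% of the 15 largest falls, 78.4% of the lower and 77.7% of the higher genes, under the 80% needed, so a motif share over any of these sets would be void and nothing is read from the matches. A match describes these letters and not a site in use. The motif starts 91 and 46 bases before the start of Gm12250 (chr11:58183593-58183892, plus strand), 97 bases before that of Gzma (chr13:113100932-113101231, minus strand), 77 before that of Tgtp1 (chr11:48992197-48992496, minus strand), 70 before that of Tgtp2 (chr11:49064163-49064462, minus strand) and 64 before that of Fam26f (chr10:34127923-34128222, minus strand).
Gm12250: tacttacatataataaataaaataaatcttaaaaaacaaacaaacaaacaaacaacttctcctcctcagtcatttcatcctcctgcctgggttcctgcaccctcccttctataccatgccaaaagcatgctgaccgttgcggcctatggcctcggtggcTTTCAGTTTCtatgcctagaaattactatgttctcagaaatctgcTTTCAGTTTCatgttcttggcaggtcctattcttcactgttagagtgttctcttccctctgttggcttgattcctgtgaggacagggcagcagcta
Gzma: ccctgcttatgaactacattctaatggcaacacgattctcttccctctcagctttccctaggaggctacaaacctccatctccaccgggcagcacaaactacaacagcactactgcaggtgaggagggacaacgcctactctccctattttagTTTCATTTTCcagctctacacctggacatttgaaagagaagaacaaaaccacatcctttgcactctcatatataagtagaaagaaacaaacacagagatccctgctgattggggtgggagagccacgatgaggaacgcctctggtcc
Tgtp1: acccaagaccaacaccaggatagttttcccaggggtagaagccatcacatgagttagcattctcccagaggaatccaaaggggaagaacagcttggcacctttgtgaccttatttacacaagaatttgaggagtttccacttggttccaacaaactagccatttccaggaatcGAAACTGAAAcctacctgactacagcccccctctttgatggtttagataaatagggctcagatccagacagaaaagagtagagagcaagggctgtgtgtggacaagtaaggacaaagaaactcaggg
Tgtp2: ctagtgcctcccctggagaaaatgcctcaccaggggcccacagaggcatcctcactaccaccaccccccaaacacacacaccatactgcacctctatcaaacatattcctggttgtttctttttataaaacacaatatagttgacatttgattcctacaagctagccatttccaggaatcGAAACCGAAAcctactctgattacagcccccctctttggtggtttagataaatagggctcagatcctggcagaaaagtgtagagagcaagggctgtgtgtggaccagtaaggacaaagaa
Fam26f: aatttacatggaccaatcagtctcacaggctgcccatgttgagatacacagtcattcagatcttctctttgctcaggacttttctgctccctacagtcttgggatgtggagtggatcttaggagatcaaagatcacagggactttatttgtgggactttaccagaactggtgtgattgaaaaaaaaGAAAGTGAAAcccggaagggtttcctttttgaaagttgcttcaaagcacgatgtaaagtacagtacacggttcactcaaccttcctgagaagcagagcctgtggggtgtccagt
The windows of Gzmc, Gzmb, Ifng and Ifi47 did not hold these letters, and no window was matched for Iigp1, Gm4951, Gbp4, Gbp6, Ly6a and Il2rb.

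Beside the GTPases, the largest falls comprised genes of cytotoxic lymphocytes (Gzma, Gzmc, Gzmb, Ifng and Il2rb, described further on) and a pair of surface proteins. Ly6a, the gene of the surface antigen Sca-1, was at 127 FPKM in wild-type against 4.18 FPKM in Irf1-/- BMDCs. Fam26f, which encodes a calcium homeostasis modulator-like membrane protein, was at 17.5 and 0.657 FPKM. Their log2 differences were -4.90 and -4.54.

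**Figure D2:**
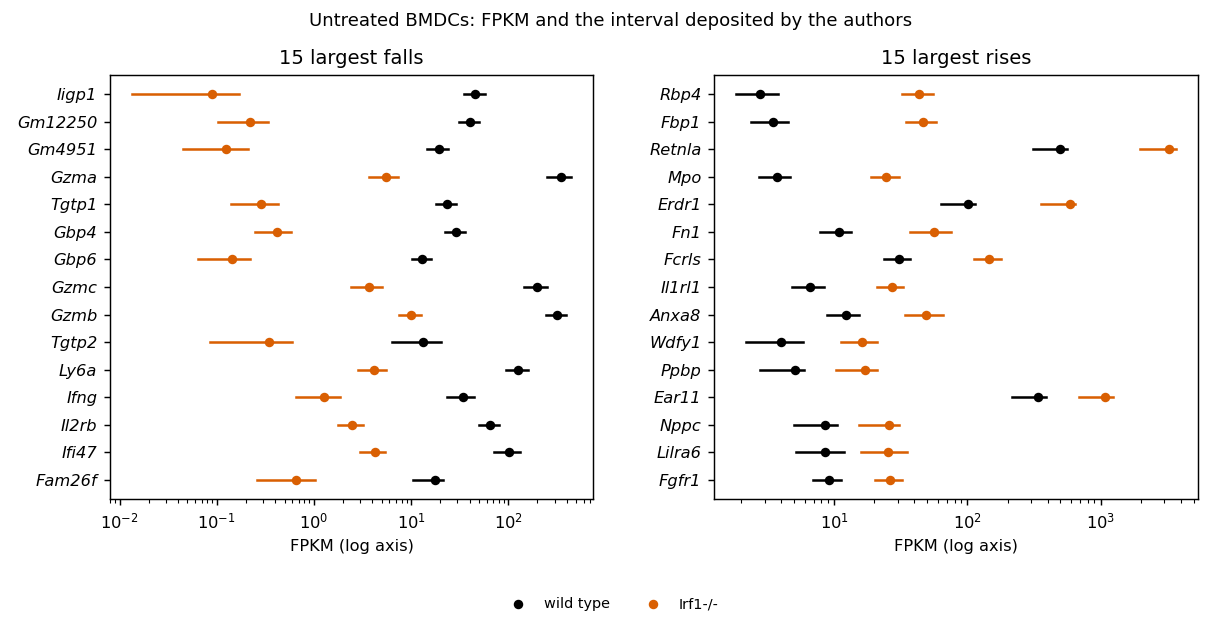
FPKM (dots, log axis) and the authors' interval (lines) of the 15 largest falls and the 15 largest rises among called genes with at least 10 FPKM in the higher condition, in untreated wild-type (black) and Irf1-/- BMDCs (orange). Iigp1 fell from 45.9 to 0.0896 FPKM at the top of the falls, and Rbp4 rose from 2.79 to 43.6 FPKM at the top of the rises.

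The antiviral interferon-stimulated genes, which encode nucleic acid sensors and effectors that interferons induce, were lower as a group but by less. Of 39 members tested, 23 were lower, 0 higher and 16 not called, with a median log2 difference of -1.37. Every member had a negative log2 difference, the nearest to 0 being -0.24 for Adar, an RNA-editing enzyme. Oasl2, of the oligoadenylate synthetase family, was at 33.1 FPKM in wild-type against 2.97 FPKM in Irf1-/- BMDCs. Rtp4, a chaperone of receptors, was at 16.5 and 2.22 FPKM, and Zbp1, a sensor of Z-form nucleic acid that triggers cell death, at 111 and 20.0 FPKM. Ifi44 was low throughout, with 1.92 and 0.190 FPKM. Mx1 and Mx2, interferon-induced dynamin-like GTPases, had log2 differences of -0.45 and -0.45 and were not called.

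Among the factors that carry interferon signals, 4 of 30 were lower. Batf2, a basic leucine zipper factor induced by IFN-γ, was at 29.1 FPKM in wild-type against 2.59 FPKM in Irf1-/- BMDCs. Irf8, which guides dendritic cell and macrophage development, was at 55.5 and 17.0 FPKM, and Irf7 was lower as given above. The median of the list was -0.16.

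Genes of antigen presentation were lower in both classes. MHC class I presents peptides from inside the cell, and 14 of 25 of its genes were lower, with a median log2 difference of -1.06 and 0 higher. H2-Q7, a non-classical class I molecule with near copies, was at 51.6 FPKM in wild-type against 13.5 FPKM in Irf1-/- BMDCs, and the related H2-Q4 had a log2 difference of -1.81. Nlrc5, the transactivator of class I genes, was at 30.3 and 9.33 FPKM, and Tapbpl, a peptide editor, at 31.0 and 10.5 FPKM. Tap1 and Psmb9, which supply peptides as transporter and immunoproteasome subunit, had log2 differences of -1.37 and -1.46. The classical heavy chains H2-K1 and H2-D1 were not called, with log2 differences of -0.99 and -0.52.

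MHC class II presents peptides taken up from outside, and 7 of 14 of its genes were lower, with a median log2 difference of -0.68. Ciita, the master regulator of class II genes, was at 25.8 FPKM in wild-type against 6.75 FPKM in Irf1-/- BMDCs. The chains H2-Eb1 and H2-Aa went from 454 to 121 FPKM and from 1031 to 364 FPKM. H2-Oa, a modulator of peptide loading, was at 24.4 and 8.04 FPKM. In untreated Tmem173-/- BMDCs, 3 of 15 class II genes were lower and 1 was higher, against 5.95% and 5.04% over all genes. H2-Eb1 was at 579.9 FPKM and H2-Aa at 1226 FPKM there, within 2-fold of wild type and not called. Ciita was at 10.7 FPKM, H2-Oa at 9.77 FPKM and the GTPase Iigp1 at 0.00647 FPKM there, all below wild type. Both comparisons use the same untreated wild-type samples, and their difference was not tested.

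Sensors of nucleic acid and bacteria were lower in 10 of 39 cases and higher in 0, with a median log2 difference of -0.72. Mnda, Ifi203 and Ifi204, HIN-200 family proteins that bind DNA and are close in sequence, were at 6.39, 19.6 and 14.8 FPKM in wild-type and at 0.902, 3.54 and 2.70 FPKM in Irf1-/- BMDCs. Tlr11, a receptor for protozoan profilin, was at 5.72 and 0.855 FPKM. Tmem173 itself was not called, with a log2 difference of -0.42. With a pseudocount of 1 FPKM, 6 members of the list were lower.

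In the list of inflammasome and cell death genes, 4 of 29 were lower. Casp1 and Casp4, the inflammatory caspases, were at 49.5 and 20.1 FPKM in wild-type and at 20.4 and 8.73 FPKM in Irf1-/- BMDCs. Bcl2l11, the pro-apoptotic protein BIM, and Mlkl, the effector of necroptosis, had log2 differences of -1.23 and -1.06. All 4 falls were thus modest beside those of the GTPases. The IL-1 family went in both directions, with 1 member lower and 3 higher of 14. Il18bp, the secreted inhibitor of IL-18, was at 15.9 FPKM in wild-type against 1.20 FPKM in Irf1-/- BMDCs. The higher members were receptor chains. Il1rl1, the receptor of IL-33, was at 6.55 and 26.9 FPKM, Il1r1, the receptor of IL-1, at 5.08 and 12.4 FPKM, and Il18r1, the receptor of IL-18, at 0.582 and 2.01 FPKM. The receptor chains Il1r2, Il1rap, Il1rl2 and Il18rap were not called, with log2 differences of -0.78, -0.12, 0.15 and 0.34.

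Of the IL-12 family and T cell cytokines, 8 of 21 genes were lower and 0 higher. Il12rb1, a chain of the receptors for IL-12 and IL-23, was at 9.62 FPKM (interval 7.41 to 11.8) in wild-type and 0.0886 FPKM (interval 0.0138 to 0.152) in Irf1-/- BMDCs. Its log2 difference was -5.69. Ifng, the cytokine IFN-γ itself, was at 34.6 and 1.26 FPKM. Csf2, the gene of GM-CSF, and Tnfsf10, the gene of the death ligand TRAIL, had log2 differences of -2.71 and -2.33. Il15 and Il15ra, a cytokine and the receptor chain that presents it to NK cells, were lower as well, with log2 differences of -1.17 and -1.71. Tnf, Il6 and Il12b were not called, with log2 differences of 0.56, -0.67 and 0.31. With a minimum of 5 FPKM, 5 genes of the list were lower.

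Chemokines were lower in 4 and higher in 3 of 21 cases. Cxcl9 and Cxcl10, ligands of CXCR3 that draw activated T cells, were at 21.7 and 24.1 FPKM in wild-type and at 0.947 and 4.06 FPKM in Irf1-/- BMDCs. Cxcl10 overlaps Art3 and Cxcl11 in the table. The higher ones were Cxcl14, with 0.400 and 1.94 FPKM, Cxcl2, a neutrophil attractant, with 6.79 and 17.3 FPKM, and Ppbp. Ccl12, a monocyte attractant, was at 8.95 and 0.735 FPKM, and Xcl1, a product of T and NK cells, at 10.4 and 1.75 FPKM. Among the chemoattractant receptors, 4 of 13 were lower: Fpr2 and Fpr1, receptors of formylated bacterial peptides, C5ar1, the receptor of complement C5a, and Ccrl2. Fpr2 was at 67.2 FPKM in wild-type, at 4.87 in Irf1-/- and at 163 in Tmem173-/- BMDCs, so it was low in untreated Irf1-/- and not in untreated Tmem173-/- BMDCs. Fpr1 had the same order, with 30.3, 7.87 and 102 FPKM, and so did C5ar1, with 6.72, 1.78 and 19.4 FPKM. Neutrophil markers, of which Fpr1 is one, were higher in untreated Tmem173-/- BMDCs in 16 of 21 cases and lower in 1. Over all genes of that comparison 5.04% were higher. Their summed level was 22851.5 FPKM against 4506 FPKM in wild type. These sums include Chi3l3, at 1339 FPKM in untreated Tmem173-/- BMDCs. In untreated wild type Chi3l3 lacked the status OK and entered as 0, so that sum leaves its level out. The part of neutrophils in these receptor levels was not tested.

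Transcripts of other cell types were measured beside these groups. Of 20 T cell markers in the table, 16 were tested, 13 were lower and 1 was higher, with a median log2 difference of -2.81. Of 25 NK cell markers, 16 were tested and 15 were lower, with a median of -3.27. With a minimum of 5 FPKM, 8 NK cell markers were lower. In bulk samples, fewer cells of a type and less RNA per cell cannot be told apart.

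Cd3g and Cd3e, chains of the T cell receptor complex, were at 15.3 and 9.18 FPKM in wild-type and at 1.01 and 0.641 FPKM in Irf1-/- BMDCs. Cd8a, the co-receptor of cytotoxic T cells, was at 21.8 and 1.70 FPKM, and Zap70, the kinase of the receptor, at 5.80 and 0.431 FPKM. These levels were low beside Itgax but well above 0 in wild-type BMDCs, and none of the 4 was at 0 in Irf1-/- BMDCs. Granzymes were far more abundant: Gzma, Gzmb and Gzmc, proteases of cytotoxic granules with near copies in the genome, were at 349, 321 and 197 FPKM in wild-type and at 5.55, 10.0 and 3.69 FPKM in Irf1-/- BMDCs. Il2rb, the receptor chain shared by IL-2 and IL-15, was at 65.3 and 2.48 FPKM, and Prf1, the pore-forming perforin, at 4.27 and 0.0689 FPKM. Ctsw, a cathepsin of cytotoxic lymphocytes, was at 14.9 and 1.09 FPKM. Ncr1, a defining receptor of NK cells, was at 0.193 FPKM in wild-type and listed at 0 in Irf1-/- BMDCs, under the 1 FPKM needed in either. The T cell marker that was higher was Tcf7, with a log2 difference of 1.60. Among 13 basophil and mast cell markers tested, the one lower gene was Gzmb again.

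The summed level of the T cell markers was 133 FPKM in untreated wild-type, 41.1 FPKM in Irf1-/-, 20.7 FPKM in Tmem173-/- and 168 FPKM in Irf3/7-/- BMDCs. For the NK cell markers it was 1066, 35.5, 21.0 and 1125 FPKM, and for the interferon-induced GTPases 1009.6, 95.9, 128 and 1134 FPKM, in the same order. All of these sums were high in wild-type and Irf3/7-/- and low in Irf1-/- and Tmem173-/- BMDCs. Ifng followed them, with 34.6, 1.26, 0 and 44.0 FPKM. The part of the T and NK cell transcripts in the lower levels of interferon-induced genes and of antigen presentation genes was not tested.

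**Figure D3:**
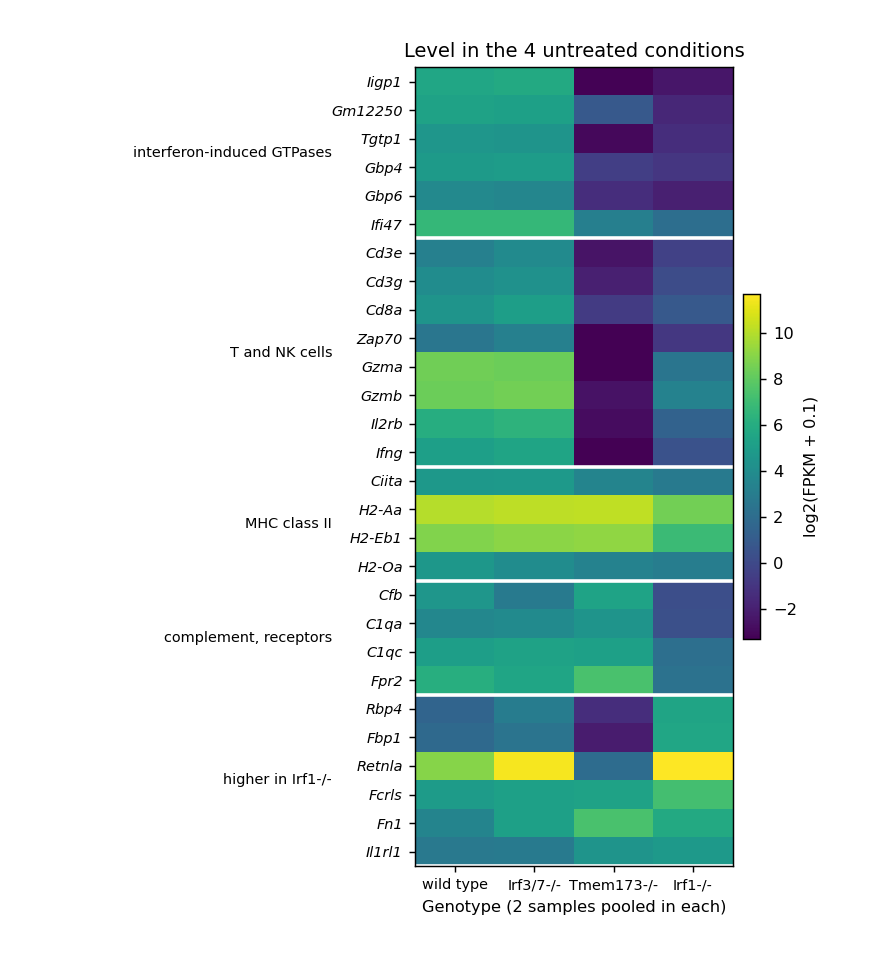
log2(FPKM + 0.1) (color) of named genes in the 4 untreated conditions, each a pool of 2 samples. GTPase, T cell and NK cell genes are dark in both Irf1-/- and Tmem173-/-. H2-Aa, H2-Eb1 and the complement genes are lower in Irf1-/- than in the other genotypes. Ciita and H2-Oa are below wild type in both Irf1-/- and Tmem173-/-. The genes at the bottom are brighter in Irf1-/- than in wild type.

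Of 26 complement genes in the table, 13 were tested, 7 were lower and 0 higher, with a median log2 difference of -1.86. Cfb, factor B of the alternative pathway, was at 23.9 FPKM in wild-type against 1.11 FPKM in Irf1-/- BMDCs. C1qa, C1qb and C1qc, the chains of C1q, were at 12.2, 52.4 and 34.1 FPKM in wild-type and at 1.17, 8.60 and 4.43 FPKM in Irf1-/- BMDCs. C1ra, a protease of the classical pathway, was low in both, with 2.35 and 0.293 FPKM. In untreated Tmem173-/- BMDCs, Cfb was at 42.3 FPKM and C1qa at 21.3 FPKM, and 0 of 14 members tested were lower and 2 higher, against 5.95% lower and 5.04% higher over all genes of that comparison. Macrophage and monocyte markers, which include C1qa, were higher in untreated Tmem173-/- BMDCs in 7 of 21 cases and lower in 0. Their summed level was 12052.5 FPKM against 1771 FPKM in wild type. The median log2 difference of these markers was 0.78 and 14 were not called, so abundant members weigh on that sum. The part of such cells in the complement levels was not tested. The difference between the knockouts was not tested, and both comparisons use the same wild-type samples. In Irf3/7-/- BMDCs, Cfb was at 7.11 FPKM and C1qa at 14.3 FPKM.

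C1q genes are also macrophage markers, and 9 of 21 macrophage and monocyte markers were lower, with 0 higher. Ly6c2, a surface antigen of inflammatory monocytes with a near copy in Ly6c1, was at 169 FPKM in wild-type against 32.5 FPKM in Irf1-/- BMDCs. Csf1r, Cd68, Itgam, Lyz2 and Mrc1 were not called, with log2 differences of -0.04, 0.56, 0.04, 0.78 and 0.86. The summed level of the list was 1771 FPKM in wild-type against 2256 FPKM in Irf1-/- BMDCs, which abundant members such as Lyz2 weigh on, while the median log2 difference was -0.57. With a minimum of 5 FPKM, 5 members were lower. The part of these markers in the complement result was not tested.

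Receptors for antibody split evenly, with 2 lower and 2 higher of 9 tested. The activating receptors Fcgr4 and Fcgr1 were at 5.28 and 18.3 FPKM in wild-type and at 0.529 and 5.39 FPKM in Irf1-/- BMDCs. The inhibitory receptor Fcgr2b was higher, with 69.5 and 183 FPKM, and so was Fcrls, an Fc receptor-like scavenger receptor, with 30.4 and 146 FPKM. Among C-type lectins, which bind sugars of microbes and of the host, 3 were lower and 2 higher of 21. Clec4a1, Clec4b2 and Clec4e had log2 differences of -1.70, -1.41 and -1.15, and Cd209a and Clec4b1 of 2.31 and 1.15.

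The largest rises were smaller than the falls and of mixed function. Rbp4, the carrier of retinol, was at 2.79 FPKM (interval 1.83 to 3.75) in wild-type and 43.6 FPKM (interval 32.1 to 55.1) in Irf1-/- BMDCs. Fbp1, the gluconeogenic fructose-1,6-bisphosphatase, was at 3.43 and 46.6 FPKM. Their log2 differences were 3.92 and 3.72. In Irf3/7-/- BMDCs the levels lay between, with 7.82 FPKM of Rbp4 and 5.34 FPKM of Fbp1, and in Tmem173-/- BMDCs they were 0.293 and 0.120 FPKM. Both genes were thus highest in Irf1-/- BMDCs among the 4 untreated conditions.

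Retnla, the secreted protein RELMα that IL-4 induces in myeloid cells, was the most abundant of the risen genes, with 499.9 FPKM in wild-type against 3267 FPKM in Irf1-/- BMDCs. It is a member of the IL-4 and STAT6 response list, in which 5 of 24 genes were higher and 0 lower, with a median log2 difference of 0.37. Ear11 and Ear2, eosinophil-associated ribonucleases with near copies, were at 340.4 and 382 FPKM in wild-type and at 1082 and 846 FPKM in Irf1-/- BMDCs. The related Ear1 and Ear6, which are not in the list, were lower, with log2 differences of -2.74 and -2.21. Ch25h, which makes 25-hydroxycholesterol, was at 2.37 and 5.96 FPKM, and Cd209a completed the 5. Cd209a was not called with a pseudocount of 1 FPKM or with a minimum of 5 FPKM. Not every gene that IL-4 induces was called: Arg1, Ccl17, Ccl22 and Mrc1 had log2 differences of -0.01, 0.55, -0.05 and 0.86. Retnla was at 2855 FPKM in Irf3/7-/- and at 3.84 FPKM in Tmem173-/- BMDCs. Chi3l3, another gene of this list, was without the status OK in both untreated conditions and was not tested.

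Mpo and Ctsg, proteins of the primary granules of neutrophil precursors, were at 3.70 and 6.44 FPKM in wild-type and at 24.7 and 15.4 FPKM in Irf1-/- BMDCs. The neutrophil marker list had 2 lower (Fpr1 and Camp) and 2 higher members of 20, and its summed level was 4506 FPKM in wild-type against 2949.8 FPKM in Irf1-/- BMDCs. Chi3l3, also in this list, lacked the status OK in both conditions and entered both sums as 0. Ppbp and Gp9, genes of platelets and megakaryocytes, were at 5.06 and 0.318 FPKM in wild-type and at 17.0 and 1.36 FPKM in Irf1-/- BMDCs. The summed erythroid and megakaryocyte markers were at 100.1 and 95.4 FPKM. Of 4 B cell markers tested, 2 low ones were higher, Fcrla with 0.517 and 2.08 FPKM and Cd79a with 0.570 and 1.42 FPKM, both near the limit of 1 FPKM.

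Erdr1, a gene of the pseudoautosomal region with copies, was at 101 FPKM in wild-type against 591 FPKM in Irf1-/- BMDCs. Fn1, the matrix protein fibronectin, was at 10.8 and 55.7 FPKM, and in its list 3 genes were higher and 1 lower of 22. The others were Timp2, a protease inhibitor, with a log2 difference of 1.47, Plau, the urokinase, with 1.18, and Mmp2, a gelatinase, with -2.47. Anxa8, an annexin, was at 12.2 and 49.1 FPKM, and Wdfy1, an endosomal protein that assists Toll-like receptor signals, at 3.97 and 16.1 FPKM. Nppc, the C-type natriuretic peptide, Lilra6, an immunoglobulin-like receptor with many near copies, and Fgfr1, a fibroblast growth factor receptor, had log2 differences of 1.57, 1.57 and 1.52. The loci of Anxa8 and Lilra6 overlap other genes of the table. Wdfy1 and Nppc were also high in Irf3/7-/- BMDCs, with 16.3 and 28.1 FPKM, whereas Fcrls and Fgfr1 were near wild type there, with 36.6 and 8.18 FPKM.

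Of the 31 pathway lists, 16 held lower and 0 higher members, 1 held higher and 0 lower members, 8 held both and 6 held no called gene. Lipid mediators had 3 lower and 1 higher of 19. Cysltr2, a receptor of cysteinyl leukotrienes, was at 3.44 FPKM in wild-type against 0.187 FPKM in Irf1-/- BMDCs, Ptgs2, the inducible cyclooxygenase, at 1.28 and 0.187 FPKM, and Pla2g4a, the cytosolic phospholipase A2, at 11.3 and 4.54 FPKM, while Pla2g7, which breaks down platelet-activating factor, was at 72.6 and 147 FPKM. Nos2, the inducible nitric oxide synthase, and Irg1, which makes itaconate, were both lower, at 15.2 and 164 FPKM in wild-type and 6.10 and 50.6 FPKM in Irf1-/- BMDCs. They were the called genes of 12 tested in their list.

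The next lists held few called genes. Over all genes tested 3.52% were lower and 1.26% higher, and at these shares a list may hold a few calls. Adhesion molecules were lower in 4 of 25 cases. Itgb7, a gut-homing integrin chain that lymphocytes also use, was at 22.7 FPKM in wild-type against 3.60 FPKM in Irf1-/- BMDCs, and Itga1 and Icam2 had log2 differences of -1.46 and -1.08. Of 22 growth factor and cytokine receptors, 2 were lower. Tnfrsf14, a receptor of the TNF family, and Il3ra, the receptor of IL-3, had log2 differences of -1.78 and -1.10. Dusp2, Dusp4 and Dusp6, phosphatases of MAP kinases, were the 3 lower genes of 32 in the list of immediate early and NF-κB genes, with log2 differences of -1.37, -1.02 and -1.02. The NF-κB subunits Nfkb1, Nfkb2, Rela, Relb and Rel were not called. Marco, a scavenger receptor, and Apoc2, a lipoprotein, were the 2 lower of 22 genes of lipid uptake, with log2 differences of -1.57 and -1.49. Of 23 lysosomal proteases, Ctsw was lower, and the cathepsins Ctsk and Ctsf were higher, with log2 differences of 1.51 and 1.17. Pacsin1 was the only lower gene of 6 plasmacytoid dendritic cell markers tested, with a log2 difference of -1.34.

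Most genes of the mature dendritic cell programme were not called, with 4 lower and 1 higher of 24. Apol7c, an apolipoprotein of dendritic cells, was at 66.8 FPKM in wild-type against 6.92 FPKM in Irf1-/- BMDCs, the largest change of the list. Tnfrsf4 and Serpinb9, the receptor OX40 and an inhibitor of granzyme B, had log2 differences of -1.09 and -1.07, and Slco5a1 was higher, with 1.26. Of 18 genes of costimulation and checkpoints, Havcr2, the receptor TIM-3, was lower, with a log2 difference of -1.01, and 17 were not called. Over all genes tested 3.52% were lower.

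No gene was called in 6 lists of metabolism and growth, against 4.78% called over all genes tested. At that share, lists of this size would hold few calls. They were cell cycle with 41 genes tested, oxidative phosphorylation with 29, glycolysis with 21, cholesterol synthesis with 22, NRF2 targets with 22 and the unfolded protein response with 21. Gapdh, of glycolysis, was at 882 FPKM in wild-type against 834 FPKM in Irf1-/- BMDCs, Hspa5, the chaperone BiP, at 461 and 534 FPKM, and Pcna, of DNA replication, at 197 and 193 FPKM. Ftl1, the ferritin light chain, was at 4492 and 6130.4 FPKM, Srebf2, the regulator of cholesterol genes, at 44.2 and 42.5 FPKM, and Atp5b, of the ATP synthase, at 836 and 920.3 FPKM. The median log2 differences of these lists lay between -0.11 for the cell cycle and 0.11 for the NRF2 targets. The male genes Ddx3y and Eif2s3y were level too, with log2 differences of 0.24 and 0.04, and Thy1, the one fibroblast marker tested and a gene of T cells as well, was not called, with 89.5 and 58.8 FPKM.

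**Figure D4:**
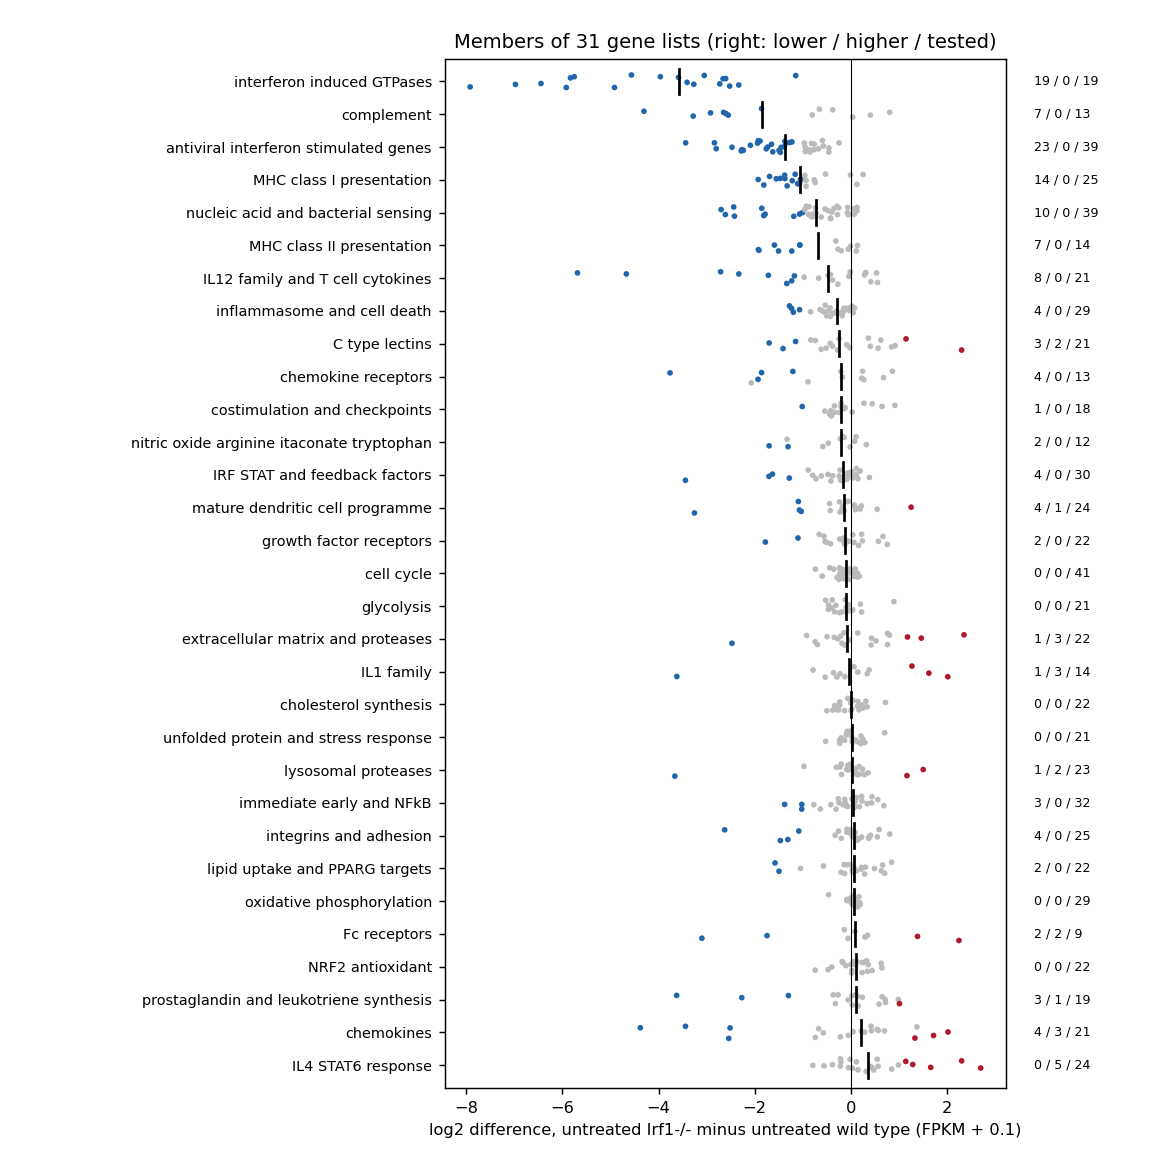
log2 difference, untreated Irf1-/- minus untreated wild type, of every tested member (dots, blue lower, red higher, gray not called) of the 31 pathway lists, with the list median as a black bar and the counts lower, higher and tested at the right. Interferon-induced GTPases stand lowest with a median of -3.58, and the IL-4 and STAT6 response stands highest with 0.37.

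Genes close to Irf1 on chromosome 11 were looked at as a group. Within 1 Mb of Irf1, 15 other genes were tested, and 1 was lower and 0 were higher. The lower one was Csf2, with 7.92 FPKM in wild-type against 1.13 FPKM in Irf1-/- BMDCs. Csf2 was listed at 0 in Tmem173-/- and stood at 12.1 FPKM in Irf3/7-/- BMDCs, the order of the T cell markers. Il13 and Il4 had log2 differences of -1.23 and -1.17 at levels of 2.17 and 1.17 FPKM in wild-type BMDCs, with intervals that overlapped those of the knockout. The remaining 12 (Aff4, Cdc42se2, Fnip1, Hspa4, Kif3a, Pdlim4, Rad50, Rapgef6, Sept8, Slc22a5, Uqcrq and Zcchc10) had log2 differences between -0.24 and 0.51.

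The same genotypes were also compared after c-di-GMP, in samples that share no library with the untreated ones. Nothing says whether treated and untreated samples came from separate mice or cultures. Treated Irf1-/- against treated wild-type BMDCs had 544 lower genes (4.91% of 11079 tested) and 294 higher genes (2.65%). Of the 388 genes lower when untreated, 231 were lower when treated as well, which is 59.5% of the untreated and 42.5% of the treated list. Of the 139 higher when untreated, 64 were higher when treated, which is 46.0% of the untreated and 21.8% of the treated list. A further 156 lower and 74 higher genes were not called after treatment. Whether the difference of a gene changed with treatment was not tested.

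The GTPases were lower in 17 of 21 cases after treatment, with a median log2 difference of -1.86 against -3.58 when untreated. Iigp1 was at 161 FPKM in treated wild-type against 6.89 FPKM in treated Irf1-/- BMDCs, and Ifi47 was at 256 and 120.3 FPKM. The antiviral genes were lower in 5 of 41 cases, with a median of -0.29 against -1.37 when untreated. Oasl2 stood at 323 FPKM in treated wild-type against 221 FPKM in treated Irf1-/- BMDCs, and Irf7 at 687 and 969 FPKM. Oasl2 and Irf7, both called lower when untreated, were not called at these higher levels.

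Class II genes were lower again, with 8 of 13 lower and a median log2 difference of -1.39. H2-Eb1 was at 729 FPKM in treated wild-type against 152 FPKM in treated Irf1-/- BMDCs. Class I genes were lower in 4 of 25 cases, with a median of -0.47. T cell markers were lower in 9 of 16 and NK cell markers in 14 of 15 cases, with summed levels of 132 and 78.6 FPKM for the T cell and 1274 and 69.9 FPKM for the NK cell markers in treated wild-type and Irf1-/- BMDCs, and their part in the treated difference was not tested. Il12rb1 was at 24.3 and 0.144 FPKM in treated wild-type and Irf1-/- BMDCs. Ptgs2, near 1 FPKM in wild-type BMDCs without c-di-GMP, was at 92.1 and 0.843 FPKM with it, a log2 difference of -6.61. Fbp1 and Rbp4 were higher again, with log2 differences of 5.49 and 4.45.

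**Figure D5:**
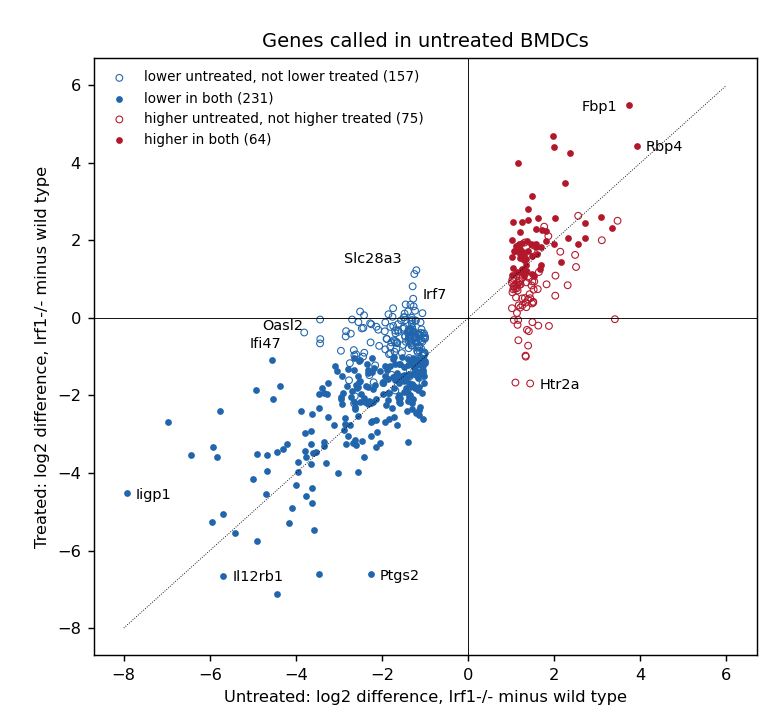
log2 difference, Irf1-/- minus wild type, of the genes called in untreated BMDCs (x axis) and of the same genes in c-di-GMP-treated BMDCs (y axis), filled where the call was the same in both (231 lower, 64 higher). The dotted line marks equal differences, and Iigp1 lies far to the left of 0 on the x axis and above the dotted line.

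The other knockouts, set against the same untreated wild-type samples, give the context of these counts. Untreated Tmem173-/- BMDCs had 661 lower (5.95%) and 560 higher (5.04%) of 11101 genes tested. Untreated Irf3/7-/- BMDCs had 95 lower (0.863%) and 129 higher (1.17%) of 11004. Over the genes lower in Irf1-/-, the median log2 difference was -1.60 in Tmem173-/- and -0.06 in Irf3/7-/- BMDCs, and over the genes higher in Irf1-/- it was 0.73 and 0.62. These comparisons share the untreated wild-type samples, so a value that is off in those samples moves all of them the same way.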

How the data were processed

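BMDC mRNA was sequenced by the authors from TruSeq stranded libraries. The deposited FPKM values come from Cuffdiff (1.06 in the submitters' processing notes, a different version in the paper's methods), which combined the 2 replicates of each of 8 conditions and gave an interval and a status per gene. The notes name mm9 as the build. For 21454 of 21681 genes the locus lay over the like-named gene of GENCODE M21 (GRCm38), so the positions used here are those of GRCm38. The paper's methods give a strand-specific setting for Seqmonk, another quantification, while the aligner and the strand setting of Cuffdiff are not given in the sources used here, so genes that overlap may share reads. Depth cannot be read from FPKM.

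Untreated Irf1-KO was compared with untreated Wild-Type on log2(FPKM + 0.1), in genes with at least 1 FPKM in one condition and the status OK in both (108 of 23356 genes lacked it). Genes more than 2-fold apart with intervals that did not overlap were called. No p-value was computed, since each condition has 1 combined value. A fold on this scale understates the change of low genes. The code that makes the calls was tested on simulated data, which says nothing on the spread between replicates. The 31 pathway and 12 marker lists were described by counts and medians. The members and lists were chosen with earlier results of these data known. The genes named were the targeted genes, the 15 largest falls and rises among called genes with at least 10 FPKM, up to 4 called members of a list with the largest change (or 2 of the highest level where none was called), and genes within 1 Mb of Irf1. Other genes named, such as uncalled markers, Adar, Mx1, Tap1, Psmb9, C1qb, Il15, Gbp2, Igtp, Cxcl2 and Tcf7, were added after their values were seen to complete a group. A few genes that the rule names are not reported here. Promoter windows came from RefSeq (GRCm38.p6). Alternatives were another pseudocount (1 or 0.01 FPKM), no filter or a minimum of 5 FPKM, a 1.5-fold or 4-fold threshold, median centring, the fold alone, and a z from the intervals with a Benjamini-Hochberg q under 0.05. The 4 columns of another knockout were not used. The dose of c-di-GMP is 25 μg/ml in the labels, while the paper's legend for the RNA-seq gives a higher one. The tools were pandas 2.3.3, numpy 2.4.6, statsmodels 0.14.6 and scipy 1.17.1 in Python 3.11.15.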

Additional observations from a re-analysis of the deposited data

Results flagged for a closer look

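For 2 genes the difference between Irf1-/- and wild-type BMDCs was called in opposite directions without and with c-di-GMP. Htr2a, a serotonin receptor, was at 0.499 FPKM in untreated wild-type and 1.53 FPKM in untreated Irf1-/- BMDCs. The log2 difference was 1.44. After treatment it was at 3.38 and 0.977 FPKM, a log2 difference of -1.69. Slc28a3, a nucleoside transporter, was at 5.00 and 2.12 FPKM when untreated, a log2 difference of -1.20. After treatment it was at 0.509 and 1.33 FPKM, a log2 difference of 1.23. Both genes were at low levels, the change of direction was not tested, and each condition is 1 combined value.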

How the results depend on the processing

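No paired analysis was possible because the authors combined the replicates of a condition into one column that carries no replicate number, and for the same reason leaving out a replicate could not be run. With a pseudocount of 1 FPKM, the genes higher in untreated Irf1-/- BMDCs numbered 78 in place of 139. With a minimum of 5 FPKM, 323 genes were called, 70 higher and 253 lower, and 538 in the treated comparison in place of 838. A threshold of 1.5-fold gave 224 higher genes, and one of 4-fold gave 176 called genes, 23 higher and 153 lower, and 232 treated. The other alternatives kept these counts within 1.5 times, and Irf1 stayed called under each of the 9 alternatives run, with log2 differences from -2.53 to -2.48. Median centring shifted values by 0.00134 and changed no call of a named gene. Of the 121 called genes that the naming rule chose, 53 kept the call under all 9 alternatives and 0 changed sign. Other named genes were not run under the alternatives. Calls were lost for 60 at 4-fold, 18 at a minimum of 5 FPKM, 16 at a pseudocount of 1 FPKM and 3 (Cd79a, Ctsf and Gp9) with the z. The intervals cannot be checked against replicates here, and changes of genes near 1 FPKM are limited by the unknown depth.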

Other observations

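Genes of eosinophil granules, chosen after their values were seen and so a description only, were lower in untreated Irf1-/- BMDCs apart from Ear11 and Ear2. Prg2, the major basic protein, was at 676 FPKM in untreated wild-type, 127 FPKM in Irf1-/-, 214 FPKM in Tmem173-/- and 283 FPKM in Irf3/7-/- BMDCs. Epx, the eosinophil peroxidase, was at 73.3, 14.6, 29.0 and 31.0 FPKM in the same order, and Prg3 at 20.0, 3.28, 7.09 and 11.4 FPKM. The ribonucleases Ear1 and Ear6 were at 163 and 169 FPKM in wild-type and at 24.3 and 36.4 FPKM in Irf1-/- BMDCs. All 5 were highest in wild-type among the untreated conditions. After c-di-GMP, Prg2 was at 676 FPKM in wild-type against 161 FPKM in Irf1-/- BMDCs, a difference of like size. These samples share no library with the untreated ones but may come from the same cultures. Ear11 went the other way, with 340.4 and 1082 FPKM untreated, and the ribonucleases are near copies whose reads may be divided between them. Ccr3 and Il5ra, receptors of eosinophils, were low in both untreated conditions, with 0.975 and 1.18 FPKM of Ccr3 and 0.511 and 0.115 FPKM of Il5ra.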
